A study of Mus musculus with 45 samples.

Results

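The response of single genes to degradation of the transcription factor GABPA was compared between the late two-cell embryo and the inner cell mass (ICM) of the E4.5 blastocyst. The comparison used 10 of the 18 RNA-seq libraries of a series of 45 samples, chosen by their labelled stage: late two-cell embryos gave 3 DMSO and 3 dTAG13 libraries, and the E4.5 ICM gave 2 and 2. For each gene the difference between dTAG13 and DMSO in the ICM was subtracted from the same difference at the late two-cell stage, on a log2 scale. A negative stage difference therefore means that the change at the late two-cell stage lay below the change in the ICM, and a positive one that it lay above.

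All embryos, controls included, carried the degron tag on both *Gabpa* alleles (Gabpa-dTAG/dTAG), in a line founded on chimeras that were backcrossed to C57BL/6J. dTAG13 brings the tag and a ubiquitin ligase together, so that the tagged protein is destroyed while transcription of the gene can go on. Late two-cell embryos were held in 1 μM dTAG13 or in the DMSO vehicle from 6 to 30 h post fertilization (hpf), which is 24 h, and were collected whole. For the ICM, blastocysts had the same dose or vehicle from 84 to 100 hpf, which is 16 h, and the outer layer was removed by immunosurgery. The label calls this sample E4.5 ICM, while the study's account of this experiment places its collection at the mid-blastocyst. Stage, length of treatment, whole embryo against isolated ICM, and the store of maternal RNA all differ between the stages and cannot be told apart. The labels do not state that the libraries of a group came from separate embryo cultures, while the study calls them biological replicates. The p-values come from 1 fit of both stages, so they measure a spread pooled over the 10 libraries, which may be technical in part.

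GABPA is an ETS-family factor that binds DNA through a GGAA core, pairs with GABPB1 or GABPB2, which supply the activation domain, and is known for its sites in the promoters of housekeeping genes, among them those of mitochondria and ribosomes. At the late two-cell stage the mouse embryo has just begun its major wave of genome activation and still holds much maternal RNA. In the blastocyst the ICM gives rise to the pluripotent epiblast (EPI) and the primitive endoderm (PrE), while the outer trophectoderm (TE) forms a keratin-rich epithelium.

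The libraries held between 18265991 and 23718825 expected counts. Replicates were far more alike in the ICM, where the median gene varied 1.63 and 1.69 times as much as sampling alone gives, than at the late two-cell stage, where it varied 14.3 and 13.4 times as much. Transcripts of the mitochondrial genome took 7.72 to 10.3% of counts in late two-cell libraries, 3.78 and 3.88% in the ICM with DMSO and 5.96 and 6.02% in the ICM with dTAG13. Markers of the late two-cell stage, all 18 of which averaged 1 FPKM or more there, summed to between 800 and 1424 FPKM (fragments scaled by transcript length and library size) at that stage and to between 7.51 and 10.1 in the ICM, where *Zscan4a*, *Zscan4b*, *Zscan4c*, *Zscan4d*, *Tdpoz3* and *Usp17lb* were at 0 in every library. The 15 epiblast markers summed to between 122 and 175 FPKM at the late two-cell stage, to 1406 and 1424 in the ICM with DMSO and to 762 and 751 with dTAG13. The 15 primitive endoderm markers stayed between 22.1 and 31.5 FPKM at the late two-cell stage, where *Foxa2* and *Sox7* were at 0 throughout, and went from 864 and 862 to 1622 and 1629 in the ICM. The 15 trophectoderm markers stayed between 20.7 and 29.3 FPKM in late two-cell embryos and went from 138 and 145 under DMSO to 931 and 925 under dTAG13 in the ICM. By group mean, *Krt18* (25.8 to 525) and *Krt8* (44.4 to 297) held most of that rise. In the ICM 3 of the 15 fell, *Aqp3* (25.9 to 12.5), *Ascl2* and *Hand1*. The labels of both stages thus carried their markers, and within the ICM the balance of lineage markers moved with the treatment. Fewer cells of a type and less RNA per cell cannot be told apart in such bulk samples. By the study's account, numbers of EPI cells did not yet differ between the treatments at this collection. These libraries hold no such count.

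**Figure D1:**
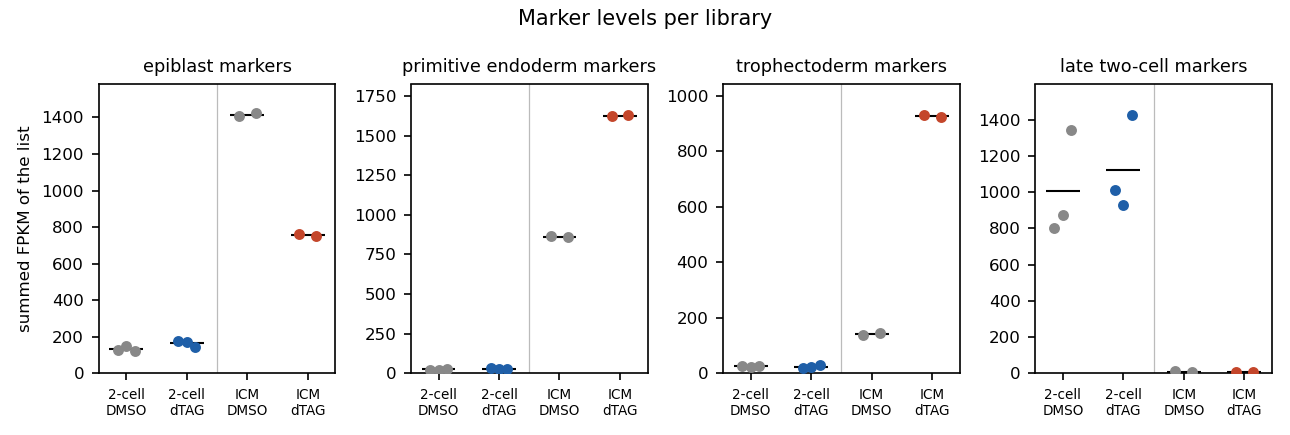
Summed FPKM of the lists of epiblast, primitive endoderm, trophectoderm and late two-cell markers in each library (points), with the group mean (line), for DMSO and dTAG13 in late two-cell embryos and in the ICM. The trophectoderm sum, whose rise *Krt18* and *Krt8* mostly carried, lay between 138 and 145 in the ICM with DMSO and between 925 and 931 with dTAG13. It lay below 30 FPKM at the late two-cell stage.

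*Gabpa* mRNA, whose protein is the target of the drug, was not lowered at either stage. At the late two-cell stage its FPKM read 111, 125 and 90.9 in DMSO libraries and 170.14, 153 and 163 in dTAG13 libraries. In the ICM it read 11 and 12 and 30.4 and 29.9, and at both stages every dTAG13 library lay above every DMSO library. The log2 fold change was 0.53 ± 0.09 (adjusted p = 0.00317) in late two-cell embryos and 0.95 ± 0.12 (adjusted p = 0.000129) in the ICM. *Gabpa* differed between stages by -0.42 ± 0.15 (adjusted p = 0.0648). *Gabpb1*, the partner with the activation domain, moved the same way, by 0.66 ± 0.09 in late two-cell embryos and 1.33 ± 0.11 in the ICM. Its stage difference of -0.67 ± 0.14 had an adjusted p of 0.00636 but stayed under the fold of 2 used below. *Gabpb2* had values of 0.04 ± 0.11 and 0.43 ± 0.14, and a stage difference of -0.38 ± 0.17 (adjusted p = 0.143). The loss of the protein cannot be read from these mRNA values. FPKM also depends on the transcript length that RSEM assigned in each library, so that its ratio need not equal the fold change, which is fitted to counts. Fold changes are log2 values ± standard error from edgeR's quasi-likelihood fit of all 10 libraries, with p-values adjusted by the Benjamini-Hochberg method over the 20854 genes tested.

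The effect of GABPA degradation differed between the stages for 3011 genes (14.4% of those tested), by an adjusted p-value under 0.05, at least a 2-fold gap between the stage effects, and a group mean of 1 FPKM or more. The stage difference was negative for 1435 genes (6.88%) and positive for 1576 (7.56%). Of the 3011, 2113 averaged 1 FPKM or more in some group of each stage, 1022 of them negative and 1091 positive, which is 9.45 and 10.1% of the 10818 such genes. The other 898 passed the FPKM limit through 1 stage alone. Without the fold and FPKM limits 4686 genes passed the adjusted p-value. Taken by stage in the same fit, late two-cell embryos had 798 genes changed (3.83%), 691 lower (3.31%) and 107 higher (0.513%). The ICM had 3051 changed (14.6%), 1721 lower (8.25%) and 1330 higher (6.38%). With the ICM libraries fitted alone, 2091 genes were lower and 1909 higher. A missing ICM call in the joint fit therefore does not show a lack of change. Over the 10818 genes, called measured at both stages from here on, the correlation of the effects at the 2 stages was weak, with a Pearson r of 0.247 and a Spearman rho of 0.261. These are correlations across genes, which are not independent replicates.

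The genes with a stage difference were sorted into 4 patterns by the stage at which they were called. Since each has at least a 2-fold gap between the stages, small effects at the other stage follow in part from this sorting. In the first, 199 genes (0.954%) fell further at the late two-cell stage. In the second, 983 genes (4.71%) fell further in the ICM. A set of 818 genes (3.92%) rose in the ICM beyond their change at the late two-cell stage, and the last pattern, with 51 genes (0.245%), rose at the late two-cell stage beyond their change in the ICM. A further 981 of the 3011 genes were called at neither stage in the matching direction, and 21 genes were in 2 patterns. Read from the stages, 62.2% of the 691 genes lower at the late two-cell stage, 41.5% of the 1721 lower in the ICM and 38.4% of the 1330 higher in the ICM had no called stage difference.

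**Figure D2:**
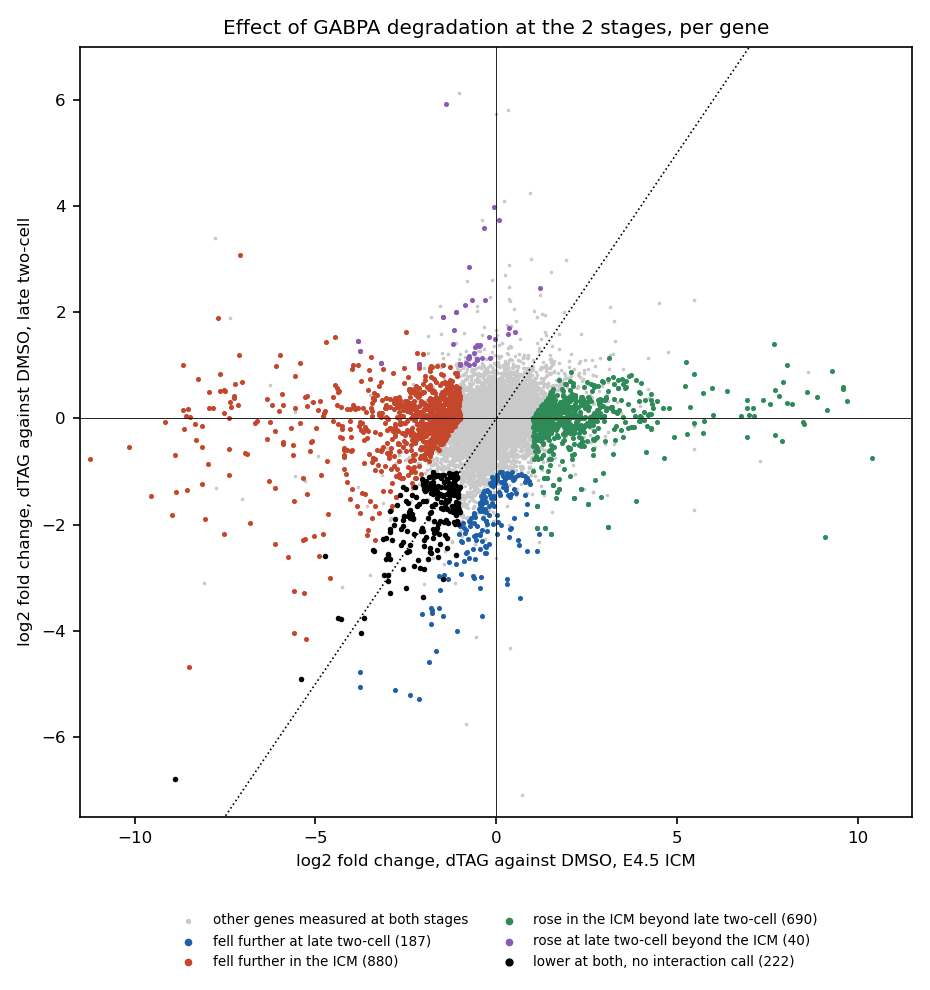
Log2 fold change of dTAG13 against DMSO for each gene that averaged 1 FPKM or more in some group of each stage, in the ICM (horizontal axis) and at the late two-cell stage (vertical axis), coloured by pattern, with equal effects on the dotted diagonal. Genes that fell further or rose in the ICM lie along the horizontal axis, with a median late two-cell effect of 0.03 and 0.02, and those that fell further at the late two-cell stage lie below it.

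Genes that fell further at the late two-cell stage were mostly called at that stage alone. Among the 199, 163 were not called in the ICM, 22 were lower there as well and 14 were higher there. For the 187 of them measured at both stages, the median effect was -1.74 in late two-cell embryos and -0.18 in the ICM, and 101 had an ICM effect within 0.5 log2 units of 0. Their median FPKM went from 13.4 to 3.46 in late two-cell embryos and from 23.1 to 19.3 in the ICM, and 80 of the 199 fell at least 4-fold at the late two-cell stage. They were 94.0% protein-coding, against 75.5% of all genes tested.

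*Ykt6*, a SNARE protein of vesicle transport (chromosome 11 from 5955693 to 5967780 of GRCm38), had an FPKM of 9.26, 11.3 and 8.58 under DMSO and 0.83, 0.88 and 0.52 under dTAG13 at the late two-cell stage, while it had 13.8 and 14.4 under DMSO and 10.8 and 12.5 under dTAG13 in the ICM. Its effect was -3.72 ± 0.23 (adjusted p = 1.47e-06) in late two-cell embryos and -0.39 ± 0.24 (adjusted p = 0.242) in the ICM. The stage difference of *Ykt6* was -3.33 ± 0.33 (adjusted p = 6.59e-05). *Pih1d2*, a gene of the PIH1-domain family (chromosome 9 from 50617321 to 50625000), went from 7.92, 6.27 and 4.85 to 0.15, 0.56 and 1.54 FPKM in late two-cell embryos and from 3.5 and 3.81 to 4.95 and 6.05 in the ICM. Its stage difference was -3.41 ± 0.89 (adjusted p = 0.0192), and the call was lost when any 1 ICM library was left out, with adjusted p-values of 0.0542 to 0.0906. The 3 other genes named in this pattern fell in late two-cell embryos and rose in the ICM. *Rec114*, needed for the DNA breaks of meiotic recombination (chromosome 9 from 58652850 to 58743964), went from 6.46, 4.84 and 5.93 to 1.75, 0.98 and 1.11 FPKM in late two-cell embryos and from 3.54 and 3.45 to 9.81 and 8.39 in the ICM, and its groups did not overlap at either stage. Its stage difference was -3.69 ± 0.44 (adjusted p = 0.000221), and 26.9% of its exonic bases lie opposite the antisense gene *Nptn*, which these libraries cannot separate. The histone gene *Hist1h2bc* (chromosome 13 from 23684199 to 23692908) went from 8.28, 7.07 and 8.5 to 4.97, 1.08 and 2.85 FPKM in late two-cell embryos and from 17.7 and 16.8 to 82.5 and 77 in the ICM. Its stage difference was -3.65 ± 0.54 (adjusted p = 0.000915), and 32.6% of its sequence also occurs in other genes. The X-linked *1700080O16Rik* went from 24.9, 32.3 and 31.2 to 7.48, 7.15 and 22.2 FPKM in late two-cell embryos and from 1.92 and 1.65 to 10.6 and 8.23 in the ICM. At both stages its DMSO and dTAG13 libraries did not overlap, and its stage difference was -3.67 ± 0.63 (adjusted p = 0.00215).

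The letters CCGGAAG, the core of the ETS site that GABPA is known to bind, were looked for on either strand of the 300 bases from 250 before to 50 after each start of transcription (RefSeq, GRCm38.p6). They were in the promoter of 55.1% of genes that fell further at the late two-cell stage (86 of the 156 with a promoter in the table), 30.1% of those that fell further in the ICM (219 of 727), 9.42% of those that rose in the ICM (52 of 552) and 13.2% of those that rose at the late two-cell stage (5 of 38). Among all genes tested the share was 16.9% (2254 of 13366), among genes measured at both stages 23.1%, and the whole promoter set had 9.93%. It was 65.8% for genes lower at both stages (160 of 243). These shares describe the letters in a window, not binding, and were not tested. The promoters of 9 of the genes described here follow, with and without the letters and from each pattern, chosen after their values were seen, 5′ to 3′ on the strand of the gene, with CCGGAAG or its reverse complement CTTCCGG in capitals.
*Ykt6*, fell at the late two-cell stage, chr11:5955508-5955807, plus strand: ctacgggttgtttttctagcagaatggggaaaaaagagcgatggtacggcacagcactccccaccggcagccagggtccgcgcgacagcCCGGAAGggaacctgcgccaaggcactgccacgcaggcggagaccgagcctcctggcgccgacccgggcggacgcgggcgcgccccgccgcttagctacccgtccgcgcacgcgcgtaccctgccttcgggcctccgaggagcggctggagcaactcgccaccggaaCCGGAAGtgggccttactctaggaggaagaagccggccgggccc
*Pih1d2*, fell at the late two-cell stage, chr9:50617071-50617370, plus strand: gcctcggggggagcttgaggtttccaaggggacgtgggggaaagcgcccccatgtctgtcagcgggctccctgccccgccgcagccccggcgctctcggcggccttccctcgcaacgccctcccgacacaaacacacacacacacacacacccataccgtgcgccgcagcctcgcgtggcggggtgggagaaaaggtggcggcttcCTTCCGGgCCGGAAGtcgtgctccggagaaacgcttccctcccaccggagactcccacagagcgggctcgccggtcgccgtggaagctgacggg
*Mrps18a*, fell further at the late two-cell stage, chr17:46110754-46111053, plus strand: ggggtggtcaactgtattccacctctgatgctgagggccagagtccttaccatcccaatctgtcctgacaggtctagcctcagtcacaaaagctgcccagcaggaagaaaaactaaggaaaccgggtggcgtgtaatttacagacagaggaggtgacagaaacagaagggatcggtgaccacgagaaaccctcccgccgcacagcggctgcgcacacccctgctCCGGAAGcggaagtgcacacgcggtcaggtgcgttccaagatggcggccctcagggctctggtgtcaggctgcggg
*Rec114*, fell at the late two-cell stage and rose in the ICM, chr9:58741510-58741809, minus strand: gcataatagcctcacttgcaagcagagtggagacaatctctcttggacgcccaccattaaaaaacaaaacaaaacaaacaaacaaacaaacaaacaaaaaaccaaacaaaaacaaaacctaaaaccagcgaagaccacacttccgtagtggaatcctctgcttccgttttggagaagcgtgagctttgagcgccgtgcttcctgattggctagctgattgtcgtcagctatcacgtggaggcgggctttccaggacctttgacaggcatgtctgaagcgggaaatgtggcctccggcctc
*Rnf25*, fell further in the ICM, chr1:74601348-74601647, minus strand: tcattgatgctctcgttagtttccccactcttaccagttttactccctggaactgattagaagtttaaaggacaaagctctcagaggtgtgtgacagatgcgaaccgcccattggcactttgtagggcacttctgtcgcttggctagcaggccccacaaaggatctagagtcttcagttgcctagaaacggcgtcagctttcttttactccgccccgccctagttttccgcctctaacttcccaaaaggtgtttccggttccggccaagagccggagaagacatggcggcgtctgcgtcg
*Faap20*, fell further in the ICM, chr4:155249716-155250015, plus strand: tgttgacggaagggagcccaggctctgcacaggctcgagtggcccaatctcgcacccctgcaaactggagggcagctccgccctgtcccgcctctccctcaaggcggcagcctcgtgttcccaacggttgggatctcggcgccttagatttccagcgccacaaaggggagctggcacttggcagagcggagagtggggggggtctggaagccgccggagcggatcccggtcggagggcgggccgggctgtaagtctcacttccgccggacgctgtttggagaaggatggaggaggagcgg
*Fance*, rose at the late two-cell stage and fell in the ICM, chr17:28313280-28313579, plus strand: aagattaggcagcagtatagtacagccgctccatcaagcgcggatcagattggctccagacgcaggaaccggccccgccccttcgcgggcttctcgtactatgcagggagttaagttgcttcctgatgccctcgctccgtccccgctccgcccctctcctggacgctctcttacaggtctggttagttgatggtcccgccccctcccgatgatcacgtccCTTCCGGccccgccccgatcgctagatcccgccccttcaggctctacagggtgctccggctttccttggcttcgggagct
*Mrps33*, lower at both stages, chr6:39810887-39811186, minus strand: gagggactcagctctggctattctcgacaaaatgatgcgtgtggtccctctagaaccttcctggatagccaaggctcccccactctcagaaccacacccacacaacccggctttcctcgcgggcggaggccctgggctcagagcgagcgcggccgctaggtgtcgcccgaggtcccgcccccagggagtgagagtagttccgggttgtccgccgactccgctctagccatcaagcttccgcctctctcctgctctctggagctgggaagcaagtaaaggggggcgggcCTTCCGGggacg
*Zpr1*, lower at both stages, chr9:46272814-46273113, plus strand: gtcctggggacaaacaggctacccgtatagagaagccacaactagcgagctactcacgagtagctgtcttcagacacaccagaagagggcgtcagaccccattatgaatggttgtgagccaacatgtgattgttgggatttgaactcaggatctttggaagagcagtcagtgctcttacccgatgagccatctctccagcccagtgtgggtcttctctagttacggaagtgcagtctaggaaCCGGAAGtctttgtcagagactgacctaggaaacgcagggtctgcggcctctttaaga
*Ykt6* held 2 copies, starting 161 bases before and 6 after the base of the start, and *Pih1d2* held 2 copies on opposite strands, 44 and 36 bases before it. The copy in *Mrps18a* began 26 bases before the start, that in *Fance* 30 bases before it, that in *Zpr1* 8 bases before it and that in *Mrps33* 38 bases after it. The windows of *Rec114*, *Rnf25* and *Faap20* held no copy on either strand.

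Genes that fell further in the ICM were mostly not called at the late two-cell stage. Of the 983 genes, 915 were not called at the late two-cell stage, 61 were lower there and 7 were higher. For the 880 measured at both stages the median effect was -1.96 in the ICM and 0.03 at the late two-cell stage, where 624 of them lay within 0.5 log2 units of 0. Their median FPKM was 8.01 under DMSO and 8.17 under dTAG13 in late two-cell embryos, and went from 10.2 to 2.29 in the ICM, where 510 of the 983 fell at least 4-fold. Of the 5 genes named in this pattern 4 were lower at both stages, but nearly gone in the ICM.

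*Rnf25*, which encodes a RING-type ubiquitin ligase (chromosome 1 from 74593748 to 74601397), had 9.95, 12.7 and 11.4 FPKM under DMSO and 3.84, 6.6 and 3.48 under dTAG13 at the late two-cell stage, but 10.2 and 10.7 under DMSO and 0.04 and 0 under dTAG13 in the ICM. The ICM libraries with dTAG13 held 1 count in all against 480 with DMSO, a ratio of 466-fold with a 95% interval of 83.2 to 18426 for counting error alone (exact binomial), against an effect of -1.36 ± 0.25 (adjusted p = 0.00421) at the late two-cell stage. *Faap20*, a subunit of the Fanconi anaemia core complex (chromosome 4 from 155249802 to 155256687), had 11.9, 13.5 and 8.38 FPKM against 4.07, 4.2 and 6.54 in late two-cell embryos and 33.5 and 33.6 against 0.12 and 0.12 in the ICM. Its ICM ratio of 1227 to 4 counts was 298-fold (interval of 116 to 1094), and it changed by -1.23 ± 0.24 (adjusted p = 0.00665) at the late two-cell stage. *Umps*, the enzyme of the last steps of UMP synthesis (chromosome 16 from 33954782 to 33967038), went from 49.2, 53 and 42.2 to 25.4, 22.2 and 24.9 FPKM in late two-cell embryos and from 38.8 and 41 to 0.24 and 0.27 in the ICM. Its effects of -1.07 ± 0.10 (adjusted p = 2.58e-05) and -7.40 ± 0.18 (adjusted p = 6.21e-09) gave a stage difference of 6.33 ± 0.21 (adjusted p = 1.25e-07), with no overlap of DMSO and dTAG13 libraries at either stage. *Ripk3*, a kinase of necroptosis (chromosome 14 from 55784995 to 55788865), went from 7.42, 6.01 and 6.12 to 2.45, 1.98 and 0.6 FPKM in late two-cell embryos and from 7.4 and 9.62 to 0.03 and 0 in the ICM, where 340 counts against 1 gave 330-fold (interval of 58.8 to 13062). Adjusted p-values of the stage difference were 4.59e-05 for *Rnf25*, 1.59e-05 for *Faap20* and 0.00412 for *Ripk3*. *Ifitm1*, an interferon-induced membrane protein (chromosome 7 from 140967221 to 140969825), differed from these 4 in that its late two-cell libraries overlapped, at 20.5, 47.1 and 44.8 FPKM with DMSO and 40.5, 57.7 and 34.7 with dTAG13, while it went from 29 and 27.4 to 0.68 and 0.09 in the ICM. The stage difference of *Ifitm1* was 6.15 ± 0.72 (adjusted p = 0.000209).

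Genes that rose in the ICM beyond their change at the late two-cell stage numbered 818, and 803 of these were not called at the late two-cell stage, 14 were lower there and 1 was higher. For the 690 measured at both stages the median effect was 1.81 in the ICM and 0.02 at the late two-cell stage. Their median FPKM was 6.06 with DMSO and 6.34 with dTAG13 in the embryo of the late two-cell stage, and went from 1.38 to 5.54 in the ICM, where 396 of the 818 rose at least 4-fold. *Nxf2*, an X-linked member of the nuclear RNA export family (chromosome X from 134944526 to 134964754), had 4.14, 7.06 and 4.31 FPKM under DMSO and 2.75, 7.58 and 2.98 under dTAG13 at the late two-cell stage, and 0.03 and 0.19 under DMSO and 5.84 and 5.06 under dTAG13 in the ICM. Its stage difference was -5.998 ± 0.88 (adjusted p = 0.000815). *Arg2*, the mitochondrial arginase (chromosome 12 from 79130777 to 79156301), was abundant and overlapping at the late two-cell stage, with 124, 107 and 115 FPKM against 152, 107 and 156, and went from 0.39 and 0.33 to 9.2 and 9.18 in the ICM. Its effect in the ICM was 4.60 ± 0.26 (adjusted p = 5.60e-07) and its stage difference -4.41 ± 0.29 (adjusted p = 5.77e-06), with 28.1% of its exonic bases under an antisense gene. *Bex6* (chromosome 16 from 32179823 to 32186972) likewise had 131, 158 and 153 FPKM against 140.10, 150.08 and 124 in late two-cell embryos and went from 0.41 and 0.42 to 6.17 and 5.43 in the ICM. *Bex6* differed between stages by -3.95 ± 0.33 (adjusted p = 2.56e-05). For *Arg2* and *Bex6* the level in the ICM with dTAG13 was thus still far below the late two-cell level. *Gm2056* had 6.2, 9.65 and 16.9 FPKM against 17.8, 14 and 15.8 in late two-cell embryos and 0 and 0.44 against 8.91 and 14.1 in the ICM, where 2 counts against 115 gave 59.3-fold (interval of 16.04 to 495), but 92.3% of its sequence also occurs in other genes. *Rec114* was the fifth gene of this pattern. The summed trophectoderm and primitive endoderm markers rose in the same ICM libraries, as given above, and their part in this pattern was not tested.

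Genes that rose at the late two-cell stage beyond their change in the ICM numbered 51. The number was 89 with DESeq2 and 28 to 32 without any 1 ICM library, and the 107 genes higher at the late two-cell stage became 230 with DESeq2 and 67 with voom. Of the 51, 43 were not called in the ICM, 7 were lower there and 1 was higher, and 13 rose at least 4-fold at the late two-cell stage. *Igfbp2*, a secreted binding protein of insulin-like growth factors (chromosome 1 from 72824503 to 72852474), rose from 3.17, 3.56 and 3.15 to 11.7, 10.8 and 8 FPKM in late two-cell embryos and fell from 32.1 and 36.1 to 2.22 and 2.51 in the ICM. Its effects of 1.46 ± 0.19 (adjusted p = 0.000434) and -3.83 ± 0.25 (adjusted p = 1.50e-06) gave a stage difference of 5.29 ± 0.32 (adjusted p = 3.05e-06). *Upk1a*, a uroplakin of epithelial surfaces (chromosome 7 from 30603092 to 30612847), rose from 8.68, 5.95 and 6.25 to 15.5, 16.5 and 13.1 FPKM and fell from 9.85 and 10.8 to 1.4 and 0.97 in the ICM. *Upk1a* differed between stages by 4.23 ± 0.36 (adjusted p = 2.65e-05). *Fance*, another subunit of the Fanconi anaemia core complex (chromosome 17 from 28313519 to 28326572), rose from 6.43, 12.1 and 9.28 to 19.8, 22.7 and 18.8 FPKM and fell from 15.2 and 16.8 to 2.93 and 6. *Fance* differed between stages by 3.17 ± 0.41 (adjusted p = 0.00036). *Igfbp2*, *Upk1a* and *Fance* are 3 of the 7 genes that were higher in late two-cell embryos and lower in the ICM, while 14 genes had the opposite pair of calls.

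The remaining genes named in this pattern had 1 dTAG13 library far above the other 2. *Saa3*, an acute-phase protein, had 2.08, 3.25 and 2.85 FPKM under DMSO and 461, 9.14 and 7.56 under dTAG13 at the late two-cell stage, against 8.64 and 8.52 and 2.92 and 3.75 in the ICM. Its stage difference was 7.31 ± 2.34 (adjusted p = 0.0451), and without dTAG13 replicate 1 of the late two-cell stage it was 2.91 with an adjusted p of 0.00502, while leaving out any other library except late two-cell dTAG13 replicate 2 or 3 lost the call (adjusted p-values of 0.0775 to 0.160). With voom *Saa3* was not called either (4.98, adjusted p = 0.197), and DESeq2 gave it no adjusted p. *Cyba*, a subunit of NADPH oxidase, had 2.57, 1.6 and 1.62 FPKM under DMSO and 32.4, 3.77 and 4.88 under dTAG13 at the late two-cell stage. Its stage difference of 3.62 ± 1.08 (adjusted p = 0.0346) became 1.92 with an adjusted p of 0.00884 without the same library, and leaving out any 1 late two-cell DMSO library or any 1 ICM library lost the call (0.0513 to 0.124).

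Genes lower at both stages numbered 305, which is 44.1% of the genes lower in late two-cell embryos and 17.7% of those lower in the ICM. Of these, 22 fell further at the late two-cell stage, 61 fell further in the ICM and 222 had no called stage difference. The 222 had a median effect of -1.60 in late two-cell embryos and -1.72 in the ICM. A missing call does not show equal effects, and the 95% confidence interval of the stage difference lay within 1 log2 unit on either side of 0 for 92 of the 222 (41.4%). A further 7 genes were higher at both stages.

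*Mrps33*, of the small subunit of the mitochondrial ribosome (chromosome 6 from 39801804 to 39810988), had 283, 272 and 286 FPKM under DMSO and 90.5, 84.5 and 88.2 under dTAG13 at the late two-cell stage, and 370.31 and 376 against 167 and 181 in the ICM. Its effects were -1.65 ± 0.07 and -1.21 ± 0.08, and the 95% interval of the stage difference ran from -0.67 to -0.21. *Eif3k*, a subunit of translation initiation factor 3 (chromosome 7 from 28971372 to 28981864), went from 224, 199.77 and 219 to 102, 102 and 106 FPKM and from 656 and 668 to 161 and 168 in the ICM. The stage difference of *Eif3k* was 0.91 ± 0.11 (adjusted p = 0.00025), so that its fall was larger in the ICM by slightly less than the fold of 2. The Mediator subunit *Med10* went from 796, 836 and 792 to 429, 361 and 411 FPKM and from 184 and 175 to 67.6 and 62.9. *Med10* differed between stages by 0.44 ± 0.11 (adjusted p = 0.0154), but 92.8% of its exonic bases lie opposite an antisense gene. In all 3 genes the DMSO and dTAG13 libraries did not overlap at either stage.

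Among genes that the study singles out for the late two-cell stage, *Zpr1*, a zinc finger protein (chromosome 9 from 46273064 to 46282643), fell at both stages, from 60.6, 57.7 and 55.9 to 12.8, 11.8 and 16.2 FPKM in late two-cell embryos and from 62.8 and 65 to 22.9 and 22.3 in the ICM. Its stage difference was -0.46 ± 0.16 (adjusted p = 0.06), with a 95% interval from -0.80 to -0.11. *Noc3l*, a factor of large ribosomal subunit assembly, also fell at both, by -1.11 ± 0.09 and -1.75 ± 0.12. *Noc3l* differed between stages by 0.64 ± 0.14 (adjusted p = 0.00954). *Dmap1*, a subunit of the TIP60 acetyltransferase complex, went from 21.7, 16.5 and 20.5 to 7.62, 6.82 and 5.75 FPKM in late two-cell embryos and from 60.4 and 56.8 to 46.4 and 43.3 in the ICM. Its effect was -1.60 ± 0.14 in late two-cell embryos and -0.44 ± 0.16 (adjusted p = 0.0537) in the ICM, and its stage difference was -1.16 ± 0.21 (adjusted p = 0.00264). *Dnajc2*, a ribosome-associated chaperone, had effects of -1.08 ± 0.10 and -0.33 ± 0.12 (adjusted p = 0.0531), and its stage difference of -0.75 ± 0.15 (adjusted p = 0.00588) stayed under the fold of 2.

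**Figure D3:**
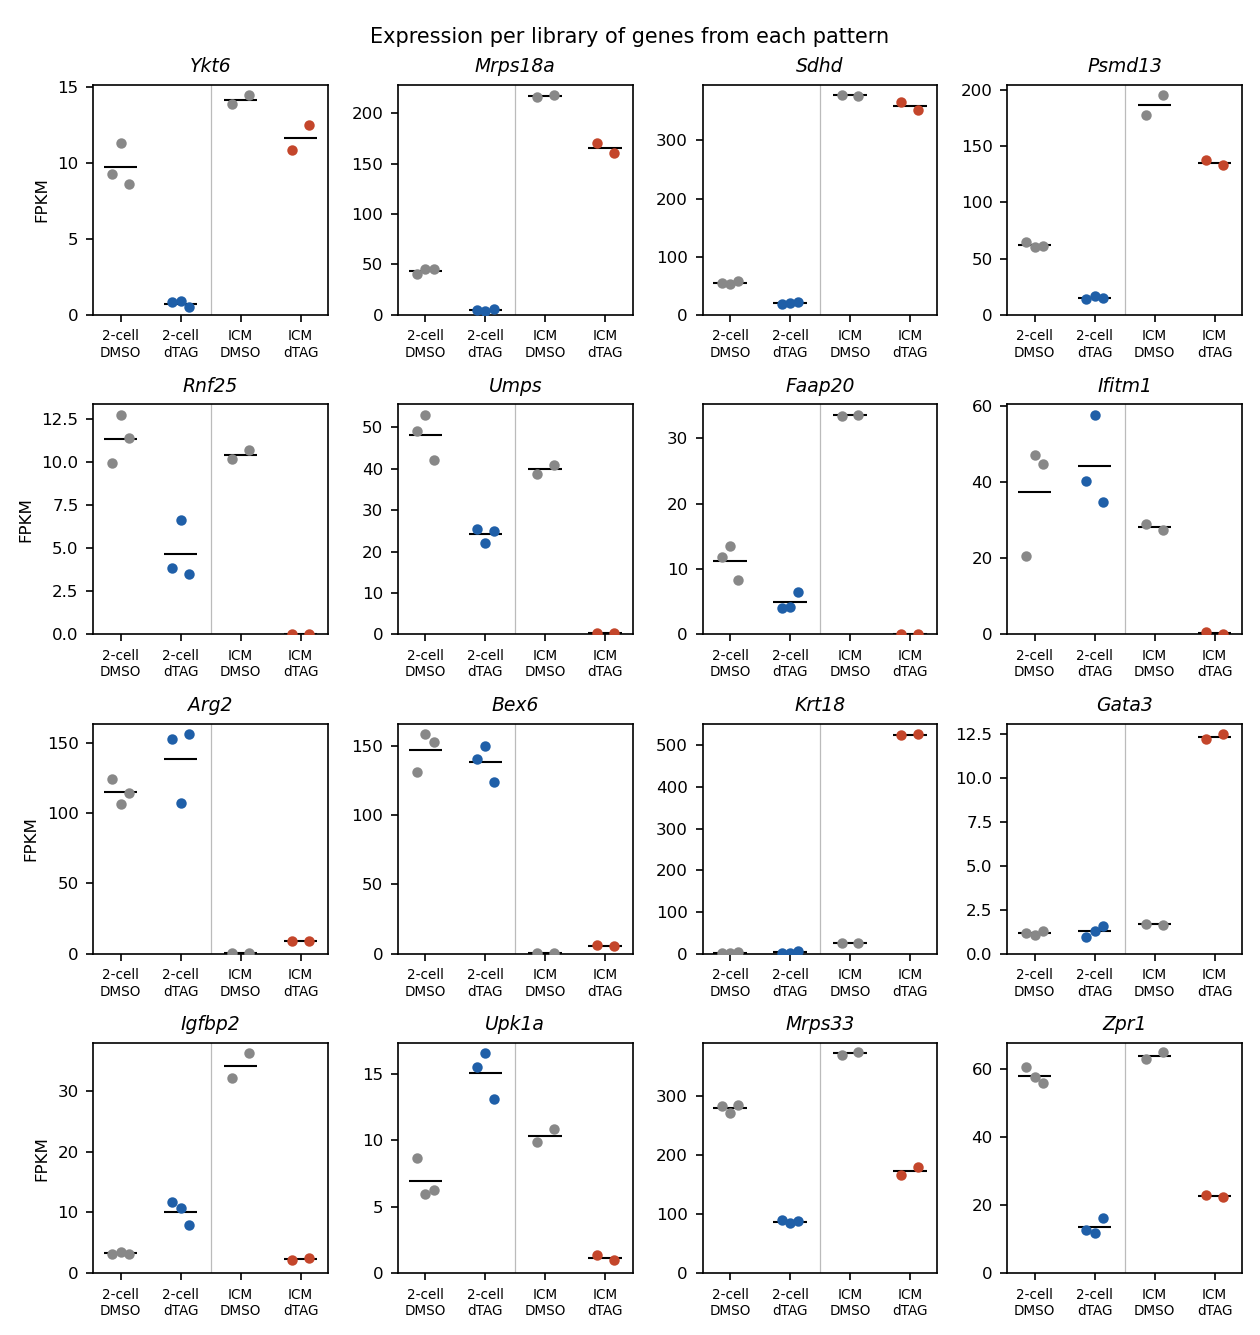
FPKM per library (points) and group mean (line) of 16 genes from the patterns, with DMSO and dTAG13 at the late two-cell stage on the left and in the ICM on the right of each panel, each panel on its own axis from 0. *Ykt6* lay between 0.52 and 0.88 FPKM with dTAG13 in late two-cell embryos and between 10.8 and 12.5 in the ICM, while *Umps* lay between 22.2 and 25.4 and at 0.24 and 0.27.

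The housekeeping systems that GABPA is known for had negative medians at both stages, and the members called differed in part. Counts of stage differences in a list are read against 6.88% negative and 7.56% positive over all genes tested, or 9.45 and 10.1% of genes measured at both stages. Counts called at a stage, here and in the lists below, are read against the shares of all genes. These were 3.31% lower and 0.513% higher at the late two-cell stage, and 8.25% lower and 6.38% higher in the ICM. Of 78 genes of mitochondrial ribosomal proteins tested, 20 were lower in late two-cell embryos (25.6%) and 9 in the ICM (11.5%), 8 of them at both. Stage differences were negative for 9 (11.5%) and positive for 2 (2.56%). The median effect was -0.37 in late two-cell embryos and -0.45 in the ICM, against -0.03 and -0.05 over all genes measured at both stages. *Mrps18a* went from 40.8, 45.2 and 45.7 to 4.77, 4.11 and 5.73 FPKM in late two-cell embryos and from 217 and 218 to 171 and 161 in the ICM. *Mrps18a* differed between stages by -2.75 ± 0.17 (adjusted p = 3.44e-06). *Mrpl33* fell at both stages, from 100.07, 86.8 and 86.6 to 2.47, 2.04 and 2.46 FPKM and from 533 and 515 to 104 and 97.3, and fell further at the late two-cell stage, by -2.81 ± 0.21 (adjusted p = 1.05e-05). *Mrps21* went the other way, from 105, 122 and 101 to 34.4, 26.8 and 33.5 FPKM in late two-cell embryos and from 422 and 395 to 17.5 and 15.3 in the ICM. *Mrps21* differed between stages by 2.84 ± 0.22 (adjusted p = 1.56e-05). The second positive member, *Mrpl53*, had a stage difference of 1.59 ± 0.26 (adjusted p = 0.00171), but 84.4% of its sequence also occurs in other genes.

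The 78 nuclear-encoded subunits of the respiratory chain held 6 negative stage differences (7.69%) and 0 positive ones in edgeR's test. The negative share lay between 6.88% over all genes and 9.45% over genes measured at both stages. On the positive side 6 had an unadjusted p under 0.05 in edgeR, and DESeq2 called 1. Lower at the late two-cell stage were 11 genes (14.1%), and 3 were lower in the ICM (3.85%, below the 8.25% of all genes). The medians were -0.18 and -0.09. *Sdhd*, a membrane anchor of succinate dehydrogenase, went from 55.2, 52.9 and 57.6 to 18.6, 20.5 and 22 FPKM in late two-cell embryos and from 378 and 377 to 365 and 353 in the ICM. *Sdhd* differed between stages by -1.37 ± 0.12 (adjusted p = 3.70e-05). *Uqcr11*, of complex III, went from 237, 148 and 240.20 to 65.6, 72.8 and 53.9 FPKM and from 1852 and 1897 to 1513 and 1456. *Uqcr11* differed between stages by -1.36 ± 0.26 (adjusted p = 0.00357). Among 37 mitochondrial transcription and translation factors, 7 were lower at each stage, 4 of them at both, and 1 had a negative and 3 a positive stage difference. *Cars2*, the mitochondrial cysteinyl-tRNA synthetase, had overlapping libraries in late two-cell embryos and went from 19 and 20.8 to 5.9 and 5 FPKM in the ICM. *Cars2* differed between stages by 1.75 ± 0.21 (adjusted p = 0.000227). *Polg2*, a subunit of the mitochondrial DNA polymerase, had a stage difference of 1.81 ± 0.29 (adjusted p = 0.00142). Of the 13 transcripts of the mitochondrial genome, 1 was called higher in the ICM by edgeR and 0 by voom, with 12 higher at an unadjusted p under 0.05. Their medians were 0.14 in late two-cell embryos and 0.65 in the ICM. A stage difference was called for 0 in edgeR, where 9 had an unadjusted p under 0.05 on the negative side, and DESeq2 called 1.

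**Figure D4:**
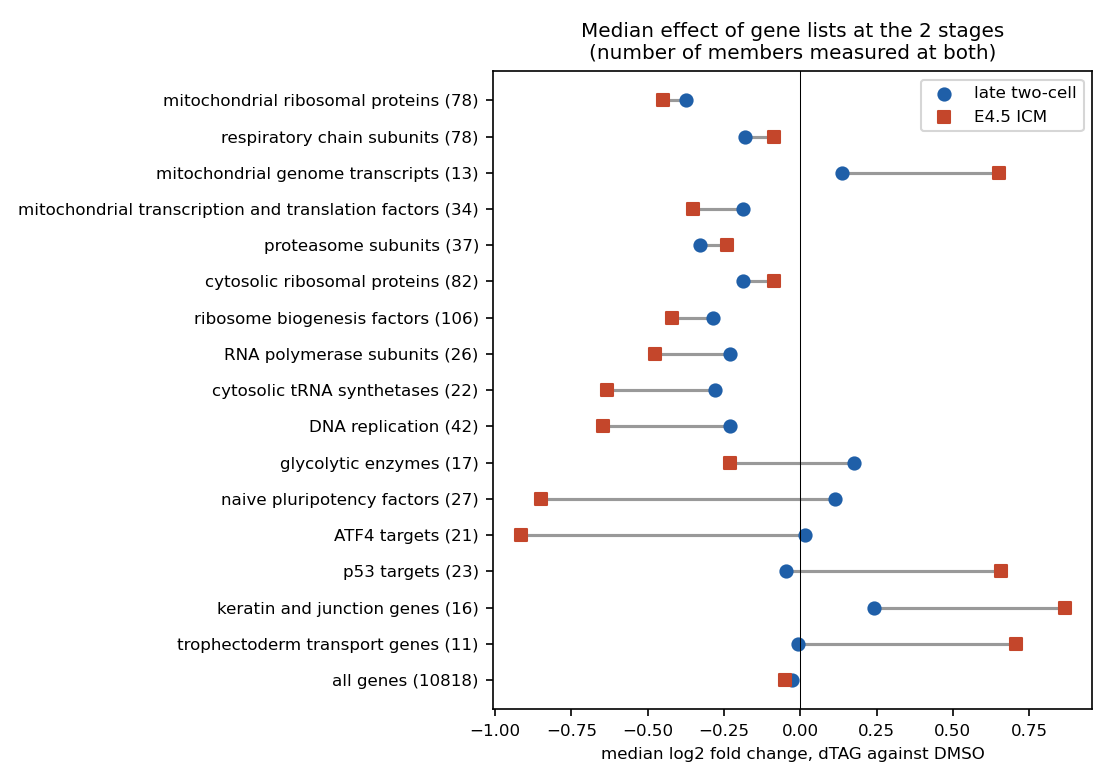
Median log2 fold change of dTAG13 against DMSO for each gene list at the late two-cell stage (circles) and in the ICM (squares), over the members measured at both stages, whose number stands in brackets, with all genes at the bottom. Both medians of mitochondrial ribosomal proteins lay below 0, at -0.37 and -0.45, while those of naive pluripotency factors were 0.11 and -0.85.

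Proteasome subunits, which degrade ubiquitin-tagged proteins, had 7 of 37 members lower in late two-cell embryos (18.9%) and 3 in the ICM (8.11%). The ICM share was near the 8.25% of all genes. The medians were -0.33 and -0.24, and 2 stage differences were negative (5.41%). On the positive side edgeR called 0, as did DESeq2, and 5 had an unadjusted p under 0.05. *Psmc1*, an ATPase of the base, went from 144, 152 and 150.36 to 14.8, 17.7 and 26.7 FPKM in late two-cell embryos and from 492 and 483 to 327 and 330.17 in the ICM. *Psmc1* differed between stages by -2.33 ± 0.25 (adjusted p = 0.000131), with 32.2% of its sequence shared with other genes. *Psmd13*, a lid subunit, went from 65.1, 60.03 and 61.2 to 14.5, 16.7 and 14.9 FPKM and from 177 and 196 to 137 and 133. *Psmd13* differed between stages by -1.51 ± 0.14 (adjusted p = 4.31e-05). Both genes thus kept most of their ICM level with dTAG13.

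Ribosome biogenesis factors held called stage differences at shares below those of all genes. Of 106 tested, 21 were lower in late two-cell embryos (19.8%) and 27 in the ICM (25.5%), 13 of them at both, with medians of -0.29 and -0.42. A negative stage difference was called for 4 (3.77% against 6.88%) and a positive one for 6 (5.66% against 7.56%). *Pwp2*, of the small subunit processome, went from 7.97, 6.29 and 6.88 to 3.47, 2.39 and 2.4 FPKM in late two-cell embryos and from 8.44 and 9.17 to 12.2 and 12.1 in the ICM. *Pwp2* differed between stages by -1.83 ± 0.25 (adjusted p = 0.000591). *Rpf1*, of the large subunit pathway, went from 177, 194 and 197 to 128, 139 and 134 FPKM and from 95.4 and 91.6 to 11.6 and 10.8. *Rpf1* differed between stages by 2.59 ± 0.13 (adjusted p = 1.23e-06), and *Imp3* had a stage difference of 1.39 ± 0.12 (adjusted p = 3.67e-05). *Surf2* had one of the deepest falls of the list at both stages, from 92.1, 104 and 96.8 to 1.2, 2.18 and 3.6 FPKM and from 67.9 and 65.1 to 5.43 and 5.1. The stage difference of *Surf2* was -1.29 ± 0.35 (adjusted p = 0.0211), and leaving out any 1 ICM library lost that call (adjusted p-values of 0.0618 to 0.0833).

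Cytosolic ribosomal proteins held few calls, with 3 of 83 lower at each stage (3.61%, against 3.31 and 8.25% of all genes). Their medians were -0.19 and -0.09, with 1 stage difference in each direction (1.20%). *Rpl39l*, a paralogue of a ribosomal protein gene, fell from 412, 431 and 432 to 144, 126 and 154 FPKM in late two-cell embryos and had 238 and 242 against 246 and 240.35 in the ICM. *Rpl39l* differed between stages by -1.59 ± 0.13 (adjusted p = 2.16e-05). *Rpl37* went from 666, 677 and 711 to 839, 866 and 823 FPKM in late two-cell embryos and fell from 1262 and 1239 to 502 and 534 in the ICM. *Rpl37* differed between stages by 1.68 ± 0.10 (adjusted p = 2.99e-06). Among 27 subunits of RNA polymerases, *Polr2b* rose in the ICM from 32.7 and 32.5 to 74.3 and 75.1 FPKM with a late two-cell effect of 0.02 ± 0.07 (adjusted p = 0.924), and *Polr1e* fell there from 34.5 and 33.8 to 13.9 and 14.6 with a late two-cell effect of -0.17 ± 0.10 (adjusted p = 0.324). Their stage differences were -1.10 ± 0.11 and 1.40 ± 0.16.

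Cytosolic tRNA synthetases, which charge tRNAs with amino acids, had 5 of 23 members lower in late two-cell embryos (21.7%) and 6 in the ICM (26.1%). Of these, 2 were lower at both, and the medians were -0.28 and -0.63. *Hars*, for histidine, fell further at the late two-cell stage, from 55.7, 52.9 and 49.5 to 10.4, 11.8 and 11.1 FPKM against 77.7 and 75.9 to 44.9 and 44.1 in the ICM. *Hars* differed between stages by -1.70 ± 0.17 (adjusted p = 7.44e-05). *Kars*, for lysine, was 1 of the 3 with a positive stage difference, at 1.21 ± 0.14 (adjusted p = 0.000155). DNA replication genes had 16 of 43 members lower in the ICM (37.2%) and 4 at the late two-cell stage (9.30%), these 4 at both. Stage differences were positive for 6 (14.0%), with medians of -0.23 in late two-cell embryos and -0.65 in the ICM. Negative stage differences numbered 0 in edgeR and DESeq2, while voom called 1 and 5 had an unadjusted p under 0.05. *Gins2*, of the replicative helicase, had 22.6, 25 and 24.3 FPKM against 39.9, 28.4 and 24.3 in late two-cell embryos and fell from 172 and 181 to 85.1 and 73.4 in the ICM. *Gins2* differed between stages by 1.18 ± 0.21 (adjusted p = 0.00231), although 67.3% of its exonic bases lie opposite the antisense gene *Gse1*. Glycolytic enzymes had 3 positive stage differences among 19 (15.8%), 2 of them among the 17 measured at both stages, with medians of 0.17 and -0.23.

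Naive pluripotency factors were called lower in the ICM and not at the late two-cell stage. Of 30 tested, 15 were lower and 1 higher in the ICM, with 13 positive (43.3%) and 2 negative stage differences (6.67%), 11 and 2 of them among the 27 measured at both stages. The medians over these 27 were 0.11 in late two-cell embryos and -0.85 in the ICM. At the late two-cell stage edgeR called 0 in either direction, with 9 higher and 4 lower at an unadjusted p under 0.05, and DESeq2 called 2 higher. Several of them were near 0 in late two-cell embryos under DMSO as well. *Nanog*, a core factor of the epiblast, had 0.48, 1.13 and 0.65 FPKM under DMSO and 0.78, 0.96 and 1.24 under dTAG13 at the late two-cell stage, and fell from 86 and 83.3 to 35.2 and 33.7 in the ICM. *Sox2*, its partner, stayed between 0.22 and 0.56 FPKM in late two-cell embryos and fell from 19.9 and 20.3 to 4.42 and 4.18 in the ICM. The stage difference was 1.73 ± 0.36 (adjusted p = 0.00655) for *Nanog* and 2.60 ± 0.48 (adjusted p = 0.00296) for *Sox2*, and neither was counted when an FPKM of at least 1 was asked for at each stage. *Utf1*, a chromatin factor of the epiblast, stayed between 1.04 and 3.03 FPKM in late two-cell embryos and fell from 273 and 285 to 105 and 105 in the ICM. Its stage difference of 1.45 ± 0.37 (adjusted p = 0.0168) lost its call without any 1 ICM library (adjusted p-values of 0.0567 to 0.0666). *Tdgf1*, the NODAL co-receptor, fell from 339.90 and 342 to 154 and 147 FPKM in the ICM. *Tdgf1* differed between stages by 1.14 ± 0.54 (adjusted p = 0.161).

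Other pluripotency genes were expressed at both stages and can be compared on both sides. *Morc1*, a transposon silencer of the germ line, had 4.05, 4.78 and 3.68 FPKM under DMSO and 7.48, 6.05 and 6.78 under dTAG13 in late two-cell embryos and fell from 24.6 and 23.7 to 2.5 and 2.88 in the ICM. *Morc1* thus moved up by 0.62 ± 0.15 (adjusted p = 0.0192) at one stage and down at the other. *Morc1* differed between stages by 3.85 ± 0.24 (adjusted p = 3.59e-06). *Prdm14*, a repressor of differentiation genes, likewise had 2.76, 4.4 and 4.32 FPKM against 9.95, 8.04 and 4.91, and fell from 13.2 and 13.7 to 0.96 and 0.8 in the ICM. The stage difference of *Prdm14* was 4.92 ± 0.46 (adjusted p = 4.52e-05), and that of the Ras-family gene *Eras* was 4.62 ± 0.52 (adjusted p = 0.000155). *Dppa4*, a chromatin protein, fell at both stages, from 765, 735 and 763 to 441, 464 and 447 FPKM and from 195 and 197 to 56.2 and 56 in the ICM. Its effects of -0.81 ± 0.06 and -1.86 ± 0.07 gave a stage difference of 1.05 ± 0.09 (adjusted p = 2.80e-05), with 40.1% of its sequence shared with other genes.

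*Etv5*, itself an ETS factor, had a late two-cell effect of 0.02 ± 0.13 (adjusted p = 0.973) and fell from 24.7 and 24.1 to 4.72 and 5.15 FPKM in the ICM. *Etv5* differed between stages by 2.38 ± 0.21 (adjusted p = 3.67e-05). *Uhrf1*, which maintains DNA methylation, had an effect of 0.44 ± 0.10 (adjusted p = 0.0174) in late two-cell embryos and -1.24 ± 0.12 (adjusted p = 2.17e-05) in the ICM. *Spic*, a further ETS factor, was far more abundant at the late two-cell stage, with 1305, 1349.6 and 1214 FPKM against 1475, 1408 and 1176, and fell from 61.3 and 58.9 to 31.7 and 29.9 in the ICM. *Spic* differed between stages by 1.03 ± 0.14 (adjusted p = 0.000463). That value lies at the fold of 2 and missed it without single libraries (0.96 to 1.12 over the alternatives). The kinase gene *Pim2* had a stage difference of 1.19 ± 0.30 (adjusted p = 0.0171), not called without either ICM DMSO library or ICM dTAG13 replicate 2 (adjusted p-values of 0.0584 to 0.0928). The 2 members with a negative stage difference were higher in the ICM libraries with dTAG13. *Dppa3*, a maternal factor that protects methylation, had 9309.7, 9093 and 10608 FPKM against 10407, 10606 and 9444 in late two-cell embryos and rose from 1539 and 1524 to 5846 and 5779.7 in the ICM. *Dppa3* differed between stages by -1.86 ± 0.10 (adjusted p = 2.33e-06), with 29.6% of its sequence shared. *Tfap2c*, an AP-2 factor also used in trophectoderm, had effects of -0.31 ± 0.13 and 0.98 ± 0.17 and a stage difference of -1.29 ± 0.21 (adjusted p = 0.00163).

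The study's lists of lineage genes, which it drew from RNA-seq of other embryos and which share members with the lists above, gave counts at both stages as follows. Of 188 EPI genes tested, 79 had a positive (42.0%) and 2 a negative stage difference (1.06%), 72 and 2 of them among genes measured at both stages, 80 were lower in the ICM and 1 at the late two-cell stage, and the medians over the 156 measured at both stages were 0.12 in late two-cell embryos and -0.93 in the ICM. Of 804 ICM genes, 175 had a positive (21.8%) and 29 a negative stage difference (3.61%), 150 and 22 of them among the 591 measured at both stages, with medians of 0.03 and -0.44. Of 252 PrE genes, 37 had a negative (14.7%) and 9 a positive stage difference (3.57%), 31 and 7 of them among the 197 measured at both stages, with medians of 0.02 and 0.47. Of 1000 TE genes, 185 had a negative (18.5%) and 44 a positive stage difference (4.4%), 147 and 35 of them among the 676 measured at both stages, with medians of 0.06 and 0.50. At the late two-cell stage 24 of the TE genes (2.4%), 21 of the ICM genes (2.61%), 8 of the PrE genes (3.17%) and 1 of the EPI genes (0.532%) were lower, each share below the 3.31% of all genes. At that stage 7 (0.7%), 7 (0.871%), 4 (1.59%) and 1 (0.532%) were higher, each share above the 0.513% of all genes.

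Most trophectoderm markers rose in the ICM and were close to 0 at the late two-cell stage. Of the 15, 9 were higher in the ICM and 7 had a negative stage difference, though 4 of the 15 were measured at both stages, 3 of these among the 7. *Krt18*, a keratin of simple epithelia, had 1.82, 2.04 and 3.76 FPKM under DMSO and 2.15, 2.38 and 6.61 under dTAG13 at the late two-cell stage, and rose from 24.9 and 26.8 to 524 and 526 in the ICM. *Krt18* differed between stages by -3.82 ± 0.55 (adjusted p = 0.000751). Its partner *Krt8* stayed between 0.19 and 0.57 FPKM in late two-cell embryos and rose from 43 and 45.8 to 301 and 293 in the ICM, with 32.3% of its sequence shared. *Gata3*, a trophectoderm transcription factor, stayed between 0.97 and 1.59 FPKM in late two-cell embryos and rose from 1.71 and 1.64 to 12.2 and 12.5 in the ICM. *Gata3* differed between stages by -2.75 ± 0.33 (adjusted p = 0.000239). The stage difference of *Krt8* was -2.84 ± 0.43 (adjusted p = 0.000936), and it was not counted when 1 FPKM was asked for at each stage. Among 26 keratin and junction genes, 12 rose in the ICM and 5 had a negative stage difference, 3 of them among the 16 measured at both stages. Among 19 trophectoderm transport genes, 5 rose and 1 fell in the ICM and 2 had a negative stage difference, 1 of them among the 11 measured at both stages, led by the peptide transporter *Slc15a2*, which went from 0.76 and 0.59 to 37.9 and 38 FPKM in the ICM and had 1.03, 0.08 and 0.29 against 0.63, 1.48 and 1.66 at the late two-cell stage (-4.18 ± 0.59 (adjusted p = 0.000678)). Whether outer cells remained after immunosurgery was not tested.

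Primitive endoderm markers were uneven. *Sox17*, a defining factor of that lineage, had ICM levels of 111 and 116 FPKM under DMSO and 105 and 104 under dTAG13, an effect of -0.12 ± 0.30 (adjusted p = 0.86), and was near 0 at the late two-cell stage. *Sox7* had 20.3 and 19.9 FPKM against 15.7 and 15.2 in the ICM (-0.44 ± 0.18 (adjusted p = 0.109)) and was at 0 in every late two-cell library, so that no stage difference can be given. *Dab2*, an endocytic adaptor, rose in the ICM from 154 and 146 to 489 and 489.80 FPKM and had 7.98, 9.17 and 10.5 against 9.33, 10.2 and 11.7 at the late two-cell stage. *Dab2* differed between stages by -1.43 ± 0.32 (adjusted p = 0.0092). Of the 15 markers, 3 were called higher in the ICM, where 10 were higher and 1 lower at an unadjusted p under 0.05 in edgeR. The median ICM effect of the 15 was 0.88. Stage differences were negative for 3 and positive for 1. Of the 5 measured at both stages, *Dab2* was the 1 with a called stage difference, and the other calls passed the FPKM limit through the ICM alone.

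Targets of the stress factors p53 and ATF4 had calls of opposite direction in the ICM and few calls at the late two-cell stage. Of 30 p53 targets, 13 were higher and 1 lower in the ICM, 1 was lower at the late two-cell stage, and 11 had a negative (36.7%) and 1 a positive stage difference (3.33%), 10 and 1 of them among the 23 measured at both stages. The medians over these 23 were -0.05 in late two-cell embryos and 0.66 in the ICM. *Polk*, a translesion DNA polymerase, fell at the late two-cell stage from 0.55, 1.24 and 1.45 to 0.25, 0.34 and 0.35 FPKM and rose in the ICM from 3.6 and 3.33 to 11 and 10.3. *Polk* differed between stages by -3.40 ± 0.66 (adjusted p = 0.00406). The 1 positive gene was *Ddb2*, a sensor of UV damage, which had 27.1, 26.1 and 22 FPKM against 23.9, 33.3 and 29.8 in late two-cell embryos and fell from 11.3 and 10.7 to 5.47 and 3.66 in the ICM (1.51 ± 0.28 (adjusted p = 0.00342)).

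Of 30 ATF4 targets, which include enzymes of amino acid synthesis, 12 were lower and 2 higher in the ICM and 2 were higher at the late two-cell stage. For the latter DESeq2 called 3 and voom 0. There were 12 positive (40.0%) and 2 negative stage differences (6.67%), 11 and 1 of them among the 21 measured at both stages, where the medians were 0.02 and -0.92. *Chac1*, which breaks down glutathione, went from 1.16, 1.53 and 1.19 to 2.03, 5.26 and 2.44 FPKM in late two-cell embryos and fell from 17.4 and 17.8 to 1.2 and 1.48 in the ICM. Its effects were 1.27 ± 0.36 (adjusted p = 0.0444) and -3.77 ± 0.46 (adjusted p = 0.000109). *Chac1* differed between stages by 5.04 ± 0.57 (adjusted p = 0.000165). The negative pair were *Cebpb* and *Ddit3*, both C/EBP-family factors, which rose in the ICM from 1.3 and 0.86 to 10.9 and 12.7 FPKM and from 42.5 and 43.9 to 93.6 and 95.1. *Cebpb* had at most 6 counts in a late two-cell library, at 0.21, 0.22 and 0.13 FPKM under DMSO and 0.09, 0.1 and 0.17 under dTAG13, and was not counted when 1 FPKM was asked for at each stage. *Ddit3* had a late two-cell effect of -0.21 ± 0.18 (adjusted p = 0.54) and a stage difference of -1.28 ± 0.29 (adjusted p = 0.00899).

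Oocyte transcripts, which the embryo inherits, summed to between 2016 and 2040 FPKM in late two-cell libraries under DMSO and between 2495 and 2866 under dTAG13. In the ICM they summed to 95.5 and 91.1 under DMSO, and 52.1 and 53.3 under dTAG13. By group mean, *Oosp1* (1240 to 1666) and *Btg4* (349 to 458) held most of the rise of the late two-cell sum. At that stage edgeR, DESeq2 and voom each called 0 of the 17 tested, with 5 higher and 1 lower at an unadjusted p under 0.05 in edgeR. Of 17 tested, 2 were lower in the ICM, and 3 had a positive and 2 a negative stage difference. The list had 3 genes measured at both stages, 2 of them with a positive call, and the other 3 calls passed the FPKM limit through the late two-cell stage alone. Of the 18 listed, 8, such as *Bmp15* and *Mos*, were at 0 in every ICM library. *Zp2*, a protein of the egg coat, had 20.8, 21.6 and 18.8 FPKM against 23.1, 19.9 and 26.6 in late two-cell embryos and 1.03 and 0.94 against 0 and 0 in the ICM, at least 13.1-fold lower there against a floor of 3 counts per library, though below the FPKM minimum of a stage call. *Tle6*, of the subcortical maternal complex, had 35.1, 23.8 and 28.5 FPKM against 37, 33.9 and 35 in late two-cell embryos and fell from 15.8 and 14.6 to 3.5 and 3.27 in the ICM. *Tle6* differed between stages by 2.98 ± 0.30 (adjusted p = 8.49e-05). Of 8 cumulus markers tested, edgeR called 0 stage differences, with 1 at an unadjusted p under 0.05 and 1 called by voom, and their sum lay between 26.7 and 38.7 FPKM in late two-cell embryos and between 60.7 and 69.6 in the ICM. Of the 18 late two-cell markers, 3 had a positive and 1 a negative stage difference, 2 and 1 of them among the 5 measured at both stages.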

How the data were processed

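RNA-seq was analysed for 10 libraries of mouse Gabpa-dTAG/dTAG embryos (late two-cell, 3 DMSO and 3 dTAG13, and E4.5 ICM, 2 and 2), made with the SMART-Seq v4 and Nextera XT kits, which do not keep strand. Per the methods, the authors trimmed reads with Trimmomatic (0.39 in the submitters' processing notes), mapped them with STAR to GRCm38, counted with RSEM, and deposited expected counts (estimated, not normalized) and FPKM (scaled by transcript length and library size) for each library. The deposited TPM values were not used. Other libraries of the series were not analysed here, except the other RNA-seq libraries in 1 alternative fit.

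After rounding of expected counts, genes that had 10 counts or more in 2 or more libraries were fitted in 1 model of 4 groups with edgeR 4.0.16 (TMM scaling, quasi-likelihood test, R 4.3.3, limma 3.58.1), with Benjamini-Hochberg adjustment over all 20854 genes. The stage difference is the contrast of the stage effects. Calls needed an adjusted p-value under 0.05, at least a 2-fold difference and a group mean of 1 FPKM or more. Against a group at 0 a bound against 3 counts per library is given. A ratio of TMM-scaled summed counts is given for a named gene with 3 counts or fewer in every library of its lower ICM group, but not 0 in all. Its exact 95% binomial (Clopper-Pearson) interval is for counting error only. Levels are FPKM, with no pseudocount. DESeq2 1.42.0, voom and the settings of the closing section are alternatives.

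Named genes are *Gabpa*, *Gabpb1* and *Gabpb2*, genes the study names for these stages, the 5 protein-coding genes of each pattern with the largest stage difference (a group mean of 5 FPKM or more at each stage, libraries not overlapping at the stage that names the pattern), the 3 lower at both stages with the smallest standard error and no called stage difference, and up to 4 members of a list. *Dab2*, *Tfap2c* and others named for a list were called members of it. The members and lists were chosen with earlier results of these data known, so counts over lists are descriptions. Promoters were searched for CCGGAAG with Python 3.11.15 and pandas 2.3.3.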

Additional observations from a re-analysis of the deposited data

Results flagged for a closer look

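The results listed here drew attention because the effect of dTAG13 at the late two-cell stage differed from that in the ICM by a test of the difference itself. They are given as values, on the log2 scale from edgeR's joint fit. No library was tested for standing apart from its group, since groups hold 2 or 3 libraries. The stage difference was called negative for 1435 genes and positive for 1576, and the patterns held 199 genes that fell further at the late two-cell stage, 983 that fell further in the ICM, 818 that rose in the ICM beyond the late two-cell stage and 51 that rose at the late two-cell stage beyond the ICM.

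Among the genes named in the report, those with a negative stage difference that were called at the late two-cell stage but not in the ICM were *Pih1d2* (-3.41), *Ykt6* (-3.33), *Mrps18a* (-2.75), *Psmc1* (-2.33), *Pwp2* (-1.83), *Hars* (-1.70), *Rpl39l* (-1.59), *Psmd13* (-1.51), *Sdhd* (-1.37), *Uqcr11* (-1.36) and *Dmap1* (-1.16). Those called in the ICM but not at the late two-cell stage were *Nxf2* (-5.998), *Gm2056* (-5.25), *Arg2* (-4.41), *Slc15a2* (-4.18), *Cebpb* (-4.06), *Bex6* (-3.95), *Krt18* (-3.82), *Krt8* (-2.84), *Gata3* (-2.75), *Dppa3* (-1.86), *Dab2* (-1.43), *Ddit3* (-1.28) and *Polr2b* (-1.10). Those called at both stages were *Rec114* (-3.69), *1700080O16Rik* (-3.67), *Hist1h2bc* (-3.65), *Polk* (-3.40), *Mrpl33* (-2.81) and *Surf2* (-1.29).

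Genes with a positive stage difference that were called at the late two-cell stage but not in the ICM were *Saa3* (7.31) and *Cyba* (3.62). Those called in the ICM but not at the late two-cell stage were *Ifitm1* (6.15), *Prdm14* (4.92), *Eras* (4.62), *Morc1* (3.85), *Tle6* (2.98), *Sox2* (2.60), *Rpf1* (2.59), *Etv5* (2.38), *Polg2* (1.81), *Cars2* (1.75), *Nanog* (1.73), *Rpl37* (1.68), *Uhrf1* (1.67), *Ddb2* (1.51), *Utf1* (1.45), *Polr1e* (1.40), *Imp3* (1.39), *Kars* (1.21), *Pim2* (1.19), *Gins2* (1.18), *Dppa4* (1.05) and *Spic* (1.03). Those called at both stages were *Rnf25* (7.21), *Faap20* (6.90), *Umps* (6.33), *Ripk3* (6.18), *Igfbp2* (5.29), *Chac1* (5.04), *Upk1a* (4.23), *Fance* (3.17), *Mrps21* (2.84) and *Mrpl53* (1.59).

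Called at neither stage, for a fold or an FPKM just under the limit in the ICM, were *Tfap2c* (-1.29) and *Zp2* (8.54). The fitted values of *Rnf25*, *Faap20*, *Ripk3*, *Gm2056* and *Zp2* are set against an ICM group with 3 counts or fewer in every library and depend on the prior count of the fit, so the count ratios, and for *Zp2* the bound, given in the report stand in their place. *Cebpb*, *Krt8*, *Nanog*, *Sox2* and *Zp2* reached 1 FPKM at 1 stage alone.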

How the results depend on the processing

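Counts, list medians and named genes were recomputed under other scalings, filters, thresholds and tools, with each library left out and with each stage fitted alone. Of 292 recomputed counts 260 stayed within 1.5 times the reported one, of 624 list medians 555 moved by less than the spread between replicates, and of 1872 values of named genes 1817 kept their direction and call, 44 lost the call and 11 gained it, while 0 reversed. The share of called stage differences called again in the same direction ran from 62.8 to 98.9%, apart from the looser fold thresholds, which hold every call by construction. With DESeq2, 230 genes were higher at the late two-cell stage and 89 rose there beyond the ICM, and with voom 67 were higher. At a fold of 1.5 383 genes fell further and 105 rose at the late two-cell stage beyond the ICM, 637 were lower at both stages, 415 of them without a called stage difference, and 1201 were lower and 261 higher at the late two-cell stage. Without a fold threshold, 2169 stage differences were negative, the patterns held 532, 1604, 1367 and 156 genes, 926 were lower at both stages, 562 of them without a called stage difference, 1632 were lower and 420 higher at the late two-cell stage, and 2999 were lower and 2352 higher in the ICM. With 1 library left out, negative stage differences ranged from 861 to 1492 and positive ones from 973 to 1549. Genes that rose in the ICM beyond the late two-cell stage ranged from 515 to 833, those that rose at the late two-cell stage from 28 to 66 and genes higher in the ICM from 854 to 1421. The low ends came from leaving out an ICM library: without ICM DMSO replicate 1 or 2, 887 and 861 stage differences were negative, 522 and 515 genes rose in the ICM beyond the late two-cell stage, 28 and 32 the other way, and 854 and 860 were higher in the ICM. Without ICM dTAG13 replicate 1 or 2, 1017 and 973 were positive, and 31 and 29 genes rose at the late two-cell stage beyond the ICM. An ICM group is then left with 1 library, which the fit assumes to vary like the others.

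Replicate numbers are shared by DMSO and dTAG13 libraries, but same-numbered libraries did not deviate together (correlations of -0.02 to 0.08). With the replicate number as a block nested in stage, 1284 stage differences were negative and 1397 positive, and the patterns held 186, 901, 747 and 46 genes. With the block, *Pih1d2* and *Saa3* missed the threshold (adjusted p = 0.0513 and 0.118) and *Tdgf1* passed it (1.08, adjusted p = 0.00545). Fitted alone, the late two-cell stage gave a biological coefficient of variation of 0.284 and the ICM one of 0.0237. The joint fit gave 0.245, so its ICM calls rest on a spread larger than that of the ICM libraries. The ICM alone had 2091 genes lower and 1909 higher, and the late two-cell stage alone had 633 and 83. With 1 late two-cell library left out, 1325 to 1492 stage differences were negative, and with 1 ICM library left out 861 to 965.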
